A study of Mus musculus with 12 samples.

Results

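The genes described here are 34 mouse genes of glycolysis and of the cell's response to low oxygen, out of 32285 gene rows in the count tables. They were chosen by gene name, with earlier results of these data known, and all 34 were found in the tables. They fall into 7 roles: 16 genes of glucose uptake and glycolysis, 3 of pyruvate and lactate handling, 2 oxygen sensors, 3 genes acting at mitochondria, 4 secreted or collagen-modifying proteins, 1 carbonic anhydrase and 5 further response genes. In low oxygen, prolyl hydroxylases of the Egln family stop marking the transcription factor HIF-1α for destruction. HIF-1α then pairs with ARNT, binds short DNA motifs and raises transcription of genes for glucose uptake, glycolysis, lactate export, blood vessel growth and acid balance. Solid tumours commonly hold poorly perfused regions in which this programme is active, and many cultured tumour lines run glycolysis at a high rate even with oxygen present.

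The samples come from SCC35 cell lines of a mouse study whose title names melanoma, with Mif (macrophage migration inhibitory factor, a cytokine) knocked out in lines 19 and 24 and kept in the knockout control lines 15 and 18. Live cells were sorted, tagged with hashtag antibodies and captured by 10x 5′ single-cell RNA sequencing. The sheet that accompanies the counts assigns every hashtag to a line, to day 0, 6, 10 or 16 and to a lettered replicate, and each hashtag is called a tumour below, although the labels do not say what the day 0 material was. Each line had 1 library of its own, holding its day 0 samples and replicates A and B of the later days. Line, library and genotype therefore cannot be told apart, and each genotype stands on 2 lines. In 2 further libraries, mixed libraries below, replicate C tumours of several lines were captured together, with no day 0. No label says whether letters mark separate animals, so p-values measure only the spread between hashtagged samples, which may be in part technical. 3 tumours marked WT in the sheet have no described group and enter no comparison.

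Promoters of 6 members that the results below turn on are printed to show the HIF motif beside the genes that carry it. Each line is the 150 bases before the RefSeq start of the gene, 5′ to 3′ on the gene's own strand, in build GRCm38.p6. Capitals mark each match to ACGTG or GCGTG on either strand (CACGT or CACGC when read on the printed strand), and matches that overlap, as in CACGTG, count separately. The intervals are chrX:106186950-106187099 (+) for Pgk1, chr7:46845654-46845803 (+) for Ldha, chr4:119108595-119108744 (+) for Slc2a1, chr4:43506876-43507025 (+) for Car9, chr7:138909507-138909656 (-) for Bnip3 and chr11:54100774-54100923 (+) for P4ha2.
Pgk1: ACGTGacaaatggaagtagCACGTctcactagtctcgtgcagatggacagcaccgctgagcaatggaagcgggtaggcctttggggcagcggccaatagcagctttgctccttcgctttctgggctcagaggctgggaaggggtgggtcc
Ldha: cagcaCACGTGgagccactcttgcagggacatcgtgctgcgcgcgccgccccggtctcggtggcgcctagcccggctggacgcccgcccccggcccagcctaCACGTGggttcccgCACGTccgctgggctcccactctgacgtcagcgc
Slc2a1: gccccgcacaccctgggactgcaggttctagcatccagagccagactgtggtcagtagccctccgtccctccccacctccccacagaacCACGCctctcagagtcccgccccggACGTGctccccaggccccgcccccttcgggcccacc
Car9: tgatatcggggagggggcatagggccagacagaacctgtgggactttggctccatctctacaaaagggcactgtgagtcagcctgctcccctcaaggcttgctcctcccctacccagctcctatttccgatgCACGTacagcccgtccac
Bnip3: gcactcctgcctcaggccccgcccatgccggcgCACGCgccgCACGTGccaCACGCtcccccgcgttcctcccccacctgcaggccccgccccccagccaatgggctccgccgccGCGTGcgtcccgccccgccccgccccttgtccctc
P4ha2: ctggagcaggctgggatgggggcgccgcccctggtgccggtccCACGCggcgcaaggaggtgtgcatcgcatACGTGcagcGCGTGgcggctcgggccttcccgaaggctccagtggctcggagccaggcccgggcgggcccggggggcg

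Ldha and Bnip3 each held 5 matches in this stretch, P4ha2 held 3, Pgk1 and Slc2a1 held 2 each and Car9 held 1. In the wider window from 250 bases before to 50 bases after the start, 29 of the 32 members with a RefSeq window (90.6%) held at least 1 match, against 12628 of 27025 genes (46.7%). Gpi1, Tpi1 and Eno2 held none, and Ndrg1 and Bnip3l had no window in the table. A gene with several windows counted if any of them matched, promoters were not matched for base composition, and the difference in shares was not tested. A match describes letters only and shows no binding.

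The line cells (non-immune cells gated on raw unique molecular identifier counts, UMIs) numbered 61550, beside 10111 macrophages and 4070 T cells from 42 tumours. The comparison over time used 30 tumours of the single-line libraries, 7 of day 0 and 23 of later days, with 220 to 3231 line cells and 1970900 to 26718395 UMIs each. Day 0 was 1 sample in control 18 and 2 in each other line. Day 0 samples held few immune cells, at most 1.66% of the cells of a sample. Only 6 macrophages and 2 T cells were gated among 6376 cells, so host cells have no day 0 comparison. Mif in line cells was 2504 ± 267 CPM (UMIs of the gene per 1e6 UMIs of the class in that tumour, scaled between tumours; SD, n = 6) at days 6 to 16 in control 15 and 2144 ± 123 (n = 6) in control 18, against 90.2 ± 11.9 (n = 6) in KO 19 and 422 ± 36.2 (n = 5) in KO 24. Both knockout lines thus kept some Mif reads. Melanocyte markers were near 0 in line cells of 31 later tumours: Tyr and Tyrp1 were at 0 in all 31, Dct in 30 and Mlana in 29, and Mitf averaged 13.3 CPM. The 12 grouped mixed-library tumours were each closest to their own line over 162 line-specific genes, with correlations of 0.714 to 0.877 except 0.465 for the day 16 C tumour of control 18.

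As a share of their UMIs, line cells of tumours at days 6 to 16 carried more of nearly the whole gene set on average than day 0 cells. Averaged over the 4 lines, 32 of 34 members rose and 0 fell by edgeR's quasi-likelihood test, with 27.5% of 14426 tested genes higher and 21.5% lower. The members' median log2 fold change was 0.60, and that of all tested genes was 0.06. The lactate exporter Slc16a3, the aldolase Aldoc, Ankrd37, Ndrg1 and the carbonic anhydrase Car9 had the highest called values, from 2.82 down to 1.51 on the log2 scale. The phosphofructokinase isoform Pfkm (0.04 ± 0.07 SE) and Adm did not pass. The edgeR count at an unadjusted p under 0.05 was also 32 higher and 0 lower, and DESeq2 called 33 higher and 0 lower.

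The 4 lines gave different counts. KO 19 had 30 members higher and 1 lower, against 24.5% and 22.7% of all tested genes. KO 24 had 28 higher and 0 lower, against 21.9% and 23.1% (1 lower at an unadjusted p under 0.05 by edgeR, 0 by DESeq2). Control 15 had 21 higher and 2 lower, against 26.0% and 23.3%. Control 18, with 1 day 0 sample, had 6 higher and 0 lower, against 8.55% and 7.6%. In KO 19, KO 24 and control 15 the members' share higher stood above the background share. In control 18 the single day 0 sample gave no spread, so its test took the spread from the other line and day groups. The control 18 count at an unadjusted p under 0.05 was 12 higher and 0 lower, and DESeq2 called 8 and 0. It was 11 when either day 6 tumour of control 15 was left out and 3 to 14 under other processing. The control 15 count fell from 23 calls to 13 without its day 0 sample A and to 15 without sample B. 4 members were called higher in all 4 lines, 14 in 3, 12 in 2, 3 in 1, and 1 (Pfkm) in none. The same tally over all tested genes was not made, so whether these numbers are unusual cannot be told. Of the 4 called in every line, the control 18 call was lost in 16 alternatives for Slc2a1 and 7 for Mxi1, and in none of those run for Ndrg1 and Ddit4.

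**Figure D1:**
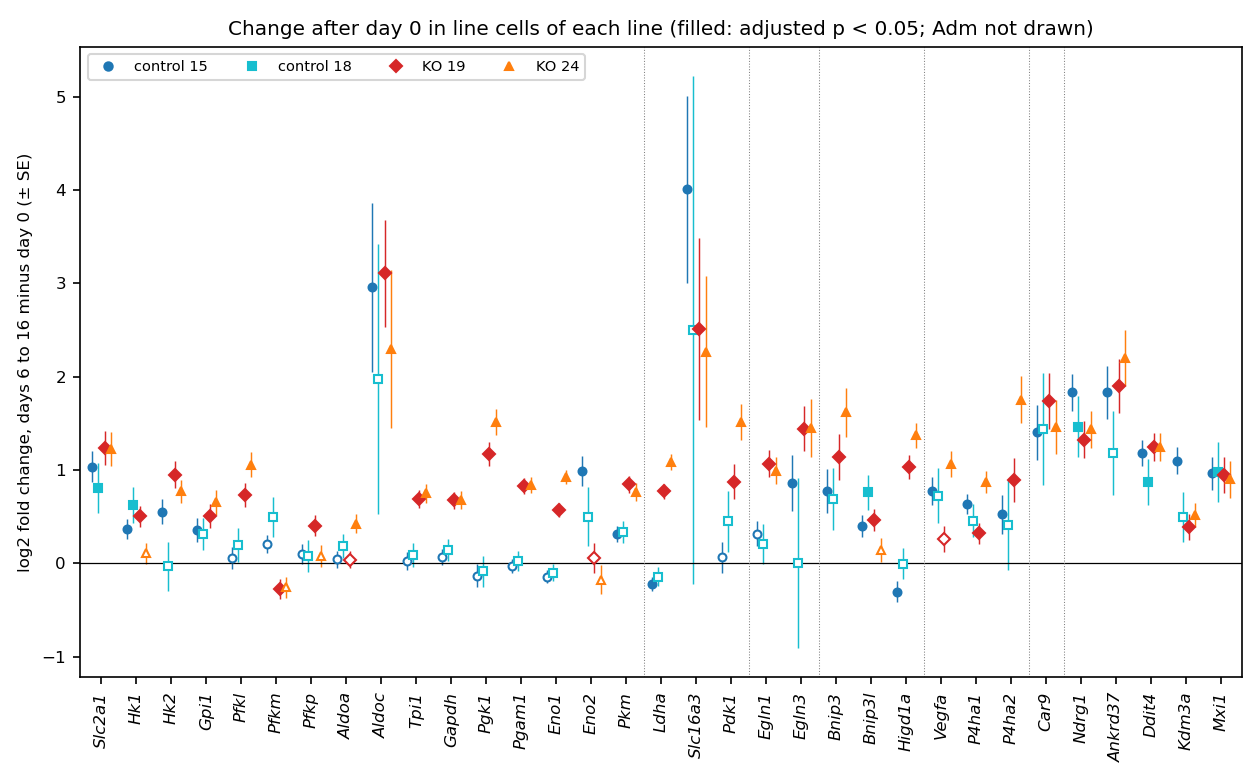
Change of 33 members in line cells of each line, as the log2 fold change of days 6 to 16 minus day 0 (vertical axis) with its standard error, genes along the horizontal axis in order of role, with dotted lines between roles. Filled points passed the edgeR test at an adjusted p under 0.05. Slc2a1, Ndrg1, Ddit4 and Mxi1 are filled in all 4 lines, whereas Pgk1 and Ldha lie at 0.77 or above in the KO lines and below 0 in the control lines.

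Glucose uptake and glycolysis opened with Slc2a1, the glucose transporter GLUT1 at the cell surface. Slc2a1 in the 7 day 0 samples ranged from 50.9 CPM over a median of 63.2 to 111, and in the 23 later tumours from 73.9 over 171 to 287. The groups did not overlap within any of the 4 lines, and 20 of 23 later tumours lay above every day 0 sample. How many of all tested genes had groups apart was not counted, here or for the genes below. With 1 day 0 sample, groups in control 18 were easily apart: Gapdh was so at 1.105 times its day 0 level. On average Slc2a1 rose by 1.08 ± 0.10 on the log2 scale (SE, edgeR adjusted p = 1.54e-08), and by 0.81 to 1.24 in the single lines. Among the 16 genes of this role, 15 rose on average, Aldoc highest at 2.58 ± 0.46. Aldoc, an aldolase isoform, was near the floor at day 0, with 7 UMIs in control 15, 3 in control 18, 31 in KO 19 and 16 in KO 24. It ranged from 0.24 over 0.67 to 1.997 CPM at day 0 and from 1.18 over 5.91 to 30.4 CPM later, apart within every line and highest in KO 19.

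Hk2, the inducible hexokinase that traps glucose in the cell, ranged from 17.7 over 19.99 to 51.2 CPM at day 0 and from 17.5 over 32.1 to 105 later. Its highest values at both times were those of KO 24, and its groups were apart in control 15, KO 19 and KO 24. Hk2 changed by 0.56 ± 0.09 on average and by -0.03 ± 0.27 in control 18. The ubiquitous hexokinase Hk1 changed by 0.40, the isomerase Gpi1 by 0.46 and the phosphofructokinase isoforms Pfkl and Pfkp by 0.51 and 0.17. Of the enzymes after phosphofructokinase, the average change was 0.18 for the aldolase Aldoa, 0.39 for the isomerase Tpi1, 0.42 for the mutase Pgam1, 0.31 and 0.34 for the enolases Eno1 and Eno2, and 0.57 for the pyruvate kinase Pkm. All of these averages passed, that of Pfkp with its call lost in 10 alternatives. Eno1 (-0.14 and -0.10) and Pgam1 (-0.03 and 0.03) did not pass in control 15 and control 18.

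Gapdh and Pgk1, the pair of enzymes at the first ATP-yielding stage of the pathway, differed by line. Pgk1 was 1197 and 1100 CPM in the day 0 samples of control 15 and ranged later from 893 over 943 to 1421. It was 1115 CPM at day 0 in control 18 and later ranged from 958 over 1036 to 1193. Day 0 lay inside the later range in both control lines. In KO 19, Pgk1 was 665 and 629 CPM at day 0 and from 1222 over 1447 to 1667 later. In KO 24 it was 260 and 254 CPM at day 0, 540 at day 6, 864 and 833 at day 10, and 784 and 958 at day 16. Every later tumour of both KO lines lay above its day 0 samples. Pgk1 rose by 1.17 ± 0.13 in KO 19 (edgeR adjusted p = 2.41e-07) and by 1.52 ± 0.14 in KO 24 (edgeR adjusted p = 2.03e-08), and changed by -0.13 ± 0.12 in control 15 and -0.08 ± 0.16 in control 18, which did not pass. Gapdh changed by 0.68 in each KO line and by 0.07 and 0.14 in control 15 and control 18. Its later tumours lay above day 0 in KO 19, KO 24 and control 18 and overlapped day 0 in control 15.

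Ldha, Slc16a3 and Pdk1 handle the pyruvate that glycolysis makes. Ldha, the lactate dehydrogenase subunit that turns pyruvate into lactate, was 3305 and 3205 CPM at day 0 in control 15 and later ranged from 2527 over 2659 to 3428. In control 18 it was 2940 CPM at day 0 and later ranged from 2514 to 2841, all below day 0. It was 1730 and 1790 CPM at day 0 in KO 19 and later ranged from 2777 over 2996 to 3204. In KO 24 it was 815 and 801 CPM at day 0, 1397 at day 6, 1901 and 1892 at day 10, and 1759 and 2049 at day 16. Ldha rose by 0.77 ± 0.08 in KO 19 and 1.09 ± 0.08 in KO 24. It fell by 0.22 ± 0.07 in control 15 (edgeR adjusted p = 0.0193) and did not pass in control 18 (-0.14 ± 0.10). The call in control 15 is one of those lost when a day 0 sample of that line was left out. Pdk1, which shuts pyruvate dehydrogenase off by phosphorylation, ranged from 16.6 over 23.1 to 35.3 CPM at day 0 and from 22.1 over 41.1 to 61.1 later, and rose in both KO lines (0.88 and 1.51) but did not pass in control 15 (0.06) or control 18 (0.45).

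Slc16a3, the lactate exporter MCT4, was close to undetected at day 0. Its day 0 counts in line cells were 8 UMIs in control 15, 1 in control 18, 13 in KO 19 and 33 in KO 24. From there its share of all UMIs was 16.9 times as high later in control 15 (95% counting interval 8.50 to 39.2), 5.78 times in control 18 (1.03 to 229), 5.19 times in KO 19 (3.0 to 9.81) and 4.12 times in KO 24 (2.82 to 6.18); these intervals cover counting error only. Its average change was 2.82 ± 0.64 (edgeR adjusted p = 0.000853), and its groups were apart in every line except KO 24. The summed level of 11 immune markers in line cells also went from 5.48 to 24.3 CPM in control 15, 6.85 to 33.99 in control 18, 13 to 22.4 in KO 19 and 30.4 to 107 in KO 24 (means of the day 0 and of the later tumours), and Slc16a3 was much higher in macrophages than in line cells. The part of immune RNA in the Slc16a3 values was not tested. With a stricter line-cell gate the average change was 2.84. Summed fibroblast markers in line cells went from 3.45 to 31.1 CPM in control 15, 13.7 to 27.5 in control 18, 4.49 to 21.6 in KO 19 and 24.8 to 43.2 in KO 24. The average count of higher members was 32 with stromal-marker cells left out and 31 with the stricter gate.

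Both oxygen sensors rose on average. Egln3, a HIF prolyl hydroxylase that is itself a HIF target, was 8.53 and 8.42 CPM at day 0 in control 15, 6.36 in control 18, 30.2 and 33.5 in KO 19, and 10.7 and 7.80 in KO 24. Later it ranged from 5.92 over 16.5 to 23.4 in control 15, from 2.25 over 6.17 to 13.9 in control 18 and from 45.0 over 109 to 123 in KO 19. In KO 24 it was 18.8 at day 6, 32.5 and 26.4 at day 10, and 25.8 and 31.1 at day 16. The KO lines were apart from their day 0 samples and the control lines overlapped theirs. The average change was 0.94 ± 0.21 (edgeR adjusted p = 0.000768). Egln3 rose in control 15 (0.86 ± 0.30), KO 19 (1.45) and KO 24 (1.45), and control 18 showed 0.00 ± 0.91. The call in control 15 was lost in 4 alternatives, among them without either day 0 sample of that line. Its change was not called different between KO and control lines (edgeR adjusted p = 0.157). Egln1, the main HIF prolyl hydroxylase, changed by 0.65 on average, by 1.07 and 0.99 in KO 19 and KO 24, and by 0.32 and 0.21 in the controls, which did not pass.

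All 3 mitochondrial genes rose on average. Bnip3, a mitophagy receptor of the outer mitochondrial membrane, ranged from 67.0 over 154 to 236 CPM at day 0 and from 132 over 325 to 499 later. It was apart in both KO lines, while day 6 B of control 15 (142) and day 6 B of control 18 (211) lay below the day 0 samples of their lines. Its average change was 1.06 ± 0.14 (edgeR adjusted p = 1.41e-06). Its relative Bnip3l changed by 0.44. Higd1a, a small inner-membrane protein of the respiratory chain, changed by 0.52 on average, with 1.03 and 1.37 in the KO lines and a fall by 0.30 in control 15, a call lost in 6 alternatives, among them without either day 0 sample of that line.

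Of the secreted and matrix genes, 3 of 4 rose on average. Vegfa, the main growth factor of blood vessels, ranged from 15.3 over 28.4 to 34.3 CPM at day 0 and from 22.9 over 33.6 to 91.9 later. It was apart in control 15, control 18 and KO 24, where the highest values lay, and overlapped in KO 19. Its average change was 0.71 ± 0.09, and it passed in control 15 (0.77) and KO 24 (1.06). P4ha2, a catalytic subunit of the collagen prolyl hydroxylase, ranged from 13.2 over 20.6 to 31.6 CPM at day 0 and from 15.6 over 33.9 to 63.3 later, rising by 0.90 ± 0.15 on average. Its partner isoform P4ha1 changed by 0.57. Adm, the vasodilator peptide adrenomedullin, had 0 UMIs at day 0 in control 15, control 18 and KO 19 and 4 in KO 24, against 185, 85, 96 and 21 UMIs later. Set against a floor of 3 UMIs over the day 0 samples of a line, its share of UMIs was at least 14.8-fold higher later in control 15 and at least 4.36-fold higher in KO 19. The later level in control 18 was under the day 0 floor of 1.52 CPM, so no fold is given there. The edgeR test called Adm higher in control 15 and KO 19.

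Car9, a carbonic anhydrase on the cell surface that keeps the cell interior from acidifying, ranged from 24.5 over 69.3 to 91.0 CPM at day 0 and from 19.1 over 139 to 391 later. The day 6 B tumours of control 18 (19.1) and control 15 (42.9) were each below day 0 of their line, and both KO lines were apart. Its average change was 1.51 ± 0.19 (edgeR adjusted p = 9.48e-07), with 1.41 to 1.74 in the 4 lines, of which control 18 (1.44 ± 0.60) did not pass.

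The 5 further response genes all rose on average, and 3 of them passed in every line, Mxi1 in control 18 only under some settings. Ndrg1, a stress-induced cytoplasmic protein, ranged from 51.4 over 72.4 to 97.3 CPM at day 0 and from 82.7 over 182 to 354 later, with 1.52 ± 0.12 on average (edgeR adjusted p = 8.01e-10). Ddit4, an inhibitor of mTORC1 signalling, ranged from 41.2 over 45.5 to 71.6 CPM and then from 65.9 over 114 to 177, with 1.14 ± 0.09. Mxi1, a Max partner that opposes Myc, ranged from 21.4 over 32.9 to 40.0 CPM and then from 36.6 over 71.0 to 92.4, with 0.95 ± 0.11. None of these genes overlapped between day 0 and later within any line, with no share over all tested genes to set beside it. Ankrd37, an ankyrin-repeat protein known as a HIF target, was likewise apart in all 4 lines, from 16.3 over 17.9 to 37.7 CPM at day 0 to 33.9 over 86.9 to 115 later, with 1.78 ± 0.17, but did not pass in control 18 (1.18 ± 0.45). The histone demethylase Kdm3a changed by 0.63.

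**Figure D2:**
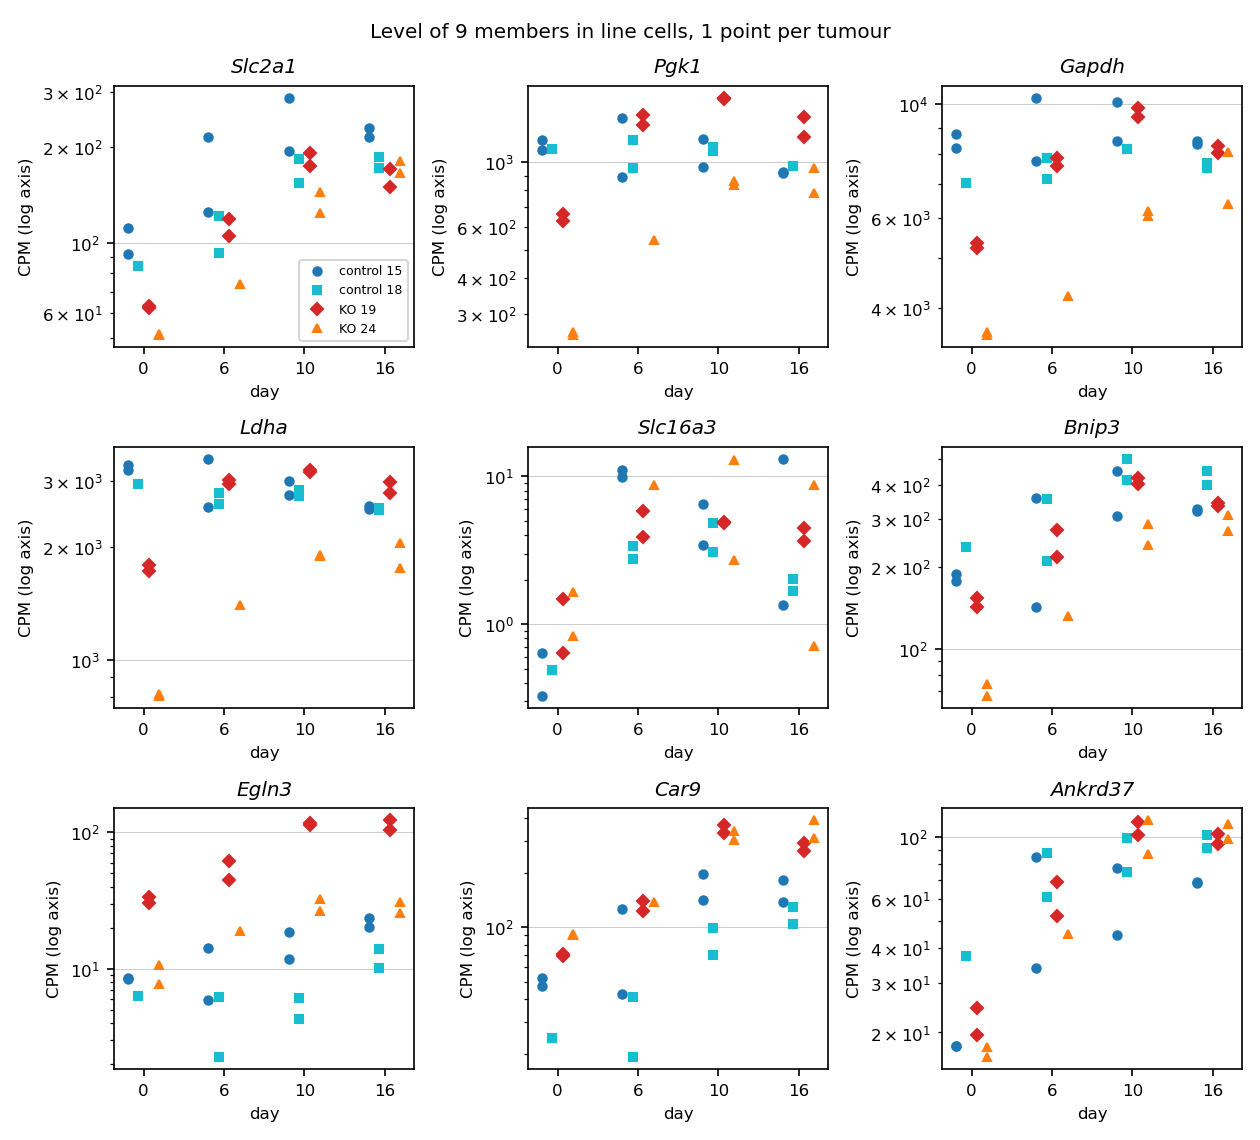
Level of 9 members in line cells (CPM, log axis) by day (0, 6, 10 and 16), 1 point per tumour and 1 colour and shape per line. Slc2a1 and Ankrd37 are lowest at day 0 in every line, and Pgk1, Gapdh and Ldha are lower at day 0 than later in KO 19 and KO 24.

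The change after day 0 differed between KO and control lines in 15 members: 13 had a higher change in the KO lines and 2 a lower one, against 15.9% and 21.4% of all tested genes. The share higher stood above the background and the share lower below it. DESeq2 called 15 and 2. The largest differences were those of Pgk1 (1.45 ± 0.13, edgeR adjusted p = 2.77e-08), Higd1a (1.36), Ldha (1.11), Pdk1 (0.94), Eno1 (0.87), P4ha2 (0.86) and Pgam1 (0.84). Pfkl, Egln1, Tpi1, Hk2, Gapdh and Pkm followed at 0.77 to 0.48, and Eno2 (-0.80) and Pfkm (-0.62) ran the other way. Of the 15 calls, 11 held in every alternative, and that of P4ha2 was lost in 15. By role, 8 of 16 genes of uptake and glycolysis were higher, and 0 of the 5 further response genes was called by edgeR (unadjusted p from 0.0722 for Kdm3a to 0.83 for Mxi1). The summed level of the enzymes from Gpi1 to Pkm and Ldha went from a day 0 mean of 15763 to a later mean of 24827 CPM in KO 19 (1.58 times) and from 9504 to 17234 in KO 24 (1.81 times). The same sum was 25104 and 25545 in control 15 and 21143 and 22491 in control 18.

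The KO and control lines also differed at day 0, in samples that this comparison shares with the one above. At day 0 the KO lines were higher than the control lines in 6 members and lower in 16, against 25.2% and 20.2% of all tested genes; this contrast was added after the data had been seen. The lower ones were led by Pgk1 (-1.47 ± 0.12), Pgam1 (-1.40), Ldha (-1.37), Higd1a (-1.31), Eno1 (-1.17) and Bnip3 (-1.03), and 11 of the 16 genes of uptake and glycolysis were among them. Higher were Egln3 (1.23), Car9 (1.18), Vegfa (0.86), Eno2 (0.68), Hk2 (0.50) and Kdm3a (0.47). Mean Egln3 at day 0 was 31.9 CPM in KO 19 but 9.23 in KO 24, against 8.48 in control 15 and 6.365 in control 18. KO 24 overlapped control 15 there. Without KO 24 the count was 13 in place of 22, and Hk2 turned to -0.28. The 7 proliferation genes moved with this difference: 0 were higher and 7 lower in the KO lines at day 0, and their summed level went from day 0 to later from 234 to 586 CPM in KO 19 and from 331 to 619 in KO 24, but from 911 to 565 in control 15 and from 998 to 732 in control 18. Median UMIs per line cell at day 0 were 17041 and 18178 in control 15, 8388 in control 18, 10901 and 11322 in KO 19, and 5815 and 5914 in KO 24. In the later tumours they were 8828 to 14121 in control 15, 4114 to 8485 in control 18, 9015 to 11655 in KO 19 and 3038 to 5175 in KO 24, lower than at day 0 in every tumour of control 15 and KO 24. Of markers of other cell types, 2 of 3 tested endothelial and 3 of 11 immune genes were higher in KO line cells at day 0, the latter near the background. Other marker lists held no call. Summed endothelial markers at day 0 were 33.3 to 35.6 CPM in the KO lines and 6.85 to 18.3 in the control lines. The part of proliferation, depth or these markers in the changes after day 0 or in the difference at day 0 was not tested.

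At days 6 to 16, the KO lines differed from the control lines in 24 members, 8 higher and 16 lower, against 28.6% and 29.2% of all tested genes. The members' share higher was near the background, and their share lower stood above it. Markers of other cell types moved with this difference in line cells: 6 of 6 T-cell, 7 of 11 immune, 4 of 8 macrophage, 3 of 6 fibroblast, 3 of 3 tested endothelial and 3 of 4 tested keratinocyte genes were higher in the KO lines. The summed immune markers were 18.3 to 133 CPM in the KO tumours and 19.7 to 43.0 in the control tumours, and the T-cell markers 1.49 to 29.2 and 0.85 to 4.36. By line, the later means of the immune markers given with Slc16a3 above were highest in KO 24, whereas that of KO 19 lay below both control lines. The part of these markers in the result was not tested. Egln3 (2.25 ± 0.16, edgeR adjusted p = 1.98e-10), Car9 (1.36 ± 0.14), Hk2 (1.095 ± 0.06), Vegfa (0.77) and Aldoc (0.73) were highest, and Adm (-2.03), Pgam1 (-0.56), Mxi1 (-0.55), Slc2a1 (-0.40) and Bnip3 (-0.38) were lowest. These SEs hold no spread between lines. Mean Hk2 was 91.4 CPM in KO 24 and 35.0 in KO 19, against 29.4 in control 15 and 22.8 in control 18. Mean Vegfa was 77.3, 34.8, 27.3 and 31.2 in the same order, and KO 19 overlapped control 15 in both genes. Aldoc turned to -0.44 without KO 19, and 7 of the lower members turned without KO 24. Of these, Eno1 (0.17, edgeR adjusted p = 0.00138) and Ldha (0.14, edgeR adjusted p = 0.0115) were then called higher in the remaining KO line. In the mixed libraries, tumours of KO and control lines shared a capture. There 1 member was higher and 0 lower, against 2.49% and 1.42% of all tested genes, which is near the background. At an unadjusted p under 0.05 by edgeR, 4 were higher and 2 lower. This fit had no term for line, so differences between lines of a genotype entered its spread, unlike in the single-line fit. The 2 counts are therefore not alike. The 1 member was Egln3 (2.03 ± 0.14, edgeR adjusted p = 0.00018), and Car9 was at 1.54 ± 0.43 (edgeR adjusted p = 0.0744). Mif itself was 299 to 315 CPM in KO 19 and 769 to 816 in KO 24 there, above the levels in their own libraries, with a KO minus control difference of -2.10 against -3.59. Egln3 in the mixed libraries was 54.7, 76.4 and 117 CPM at days 6, 10 and 16 in KO 19 and 19.2, 28.1 and 34.2 in KO 24. It was 19.4, 18.4 and 24.5 in control 15, and 3.804, 7.96 and 21.2 in control 18. KO 19 lay above every control tumour there, and KO 24 overlapped control 15. The day 16 value of control 18 is from the tumour least like its line, and without it the Egln3 difference was 1.97. Mixed-library Pgk1 was 1231, 1350 and 1184 CPM in KO 19 and 751, 940 and 1200 in KO 24, against 795 to 1264 in the control tumours, and the groups overlapped.

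**Figure D3:**
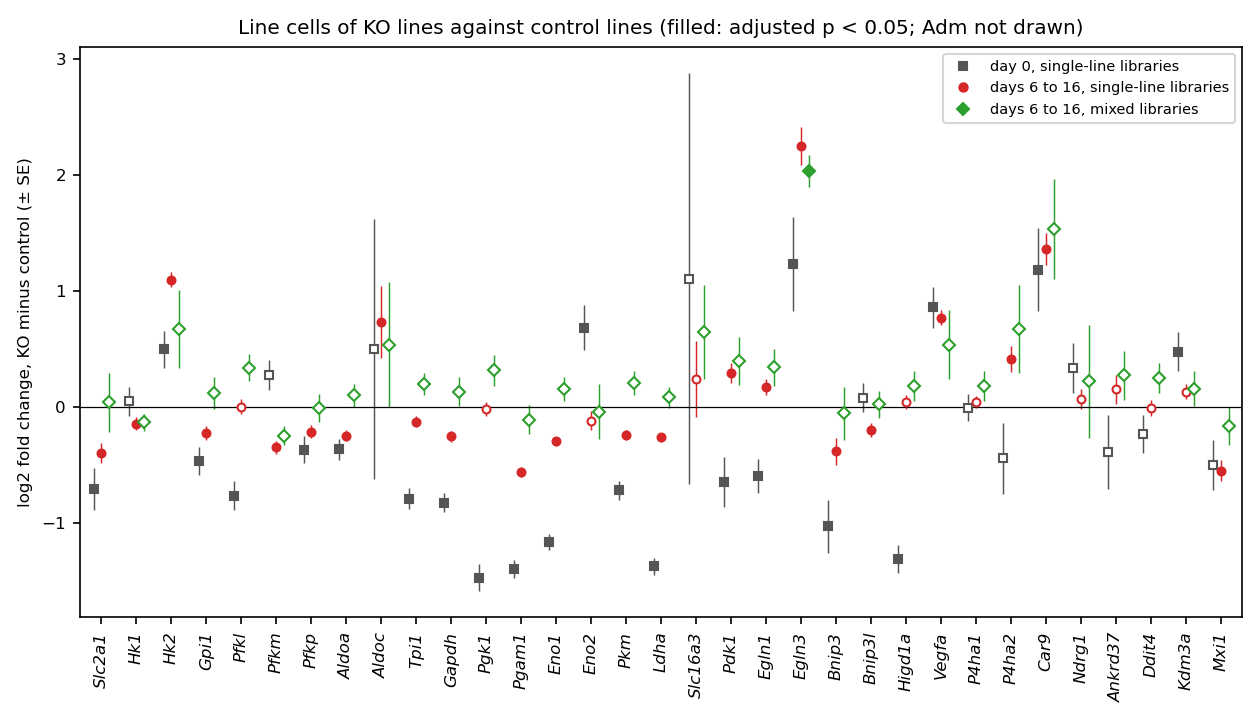
Log2 fold change of KO minus control lines with its standard error for 33 members in line cells, at day 0 and at days 6 to 16 in the single-line libraries and at days 6 to 16 in the mixed libraries. Filled points passed the edgeR test at an adjusted p under 0.05. Egln3 is the only member filled in all 3 comparisons, and the glycolytic enzymes that are well below 0 at day 0 lie closer to 0 later.

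Within the tumours, many members were higher at day 16 than at day 6, and day 10 was not part of this test. The highest later tumour was of day 10 for Slc2a1, Ndrg1, Bnip3, Ankrd37 and Aldoc. It was of day 16 for Car9, Egln3, P4ha1 and Pdk1. Averaged over the 4 lines, 21 members were higher at day 16 than at day 6 and 0 were lower, against 14.4% and 15.3% of all tested genes (27 and 0 at an unadjusted p under 0.05 by edgeR, 24 and 0 by DESeq2). The members' median change was 0.34, and that of all tested genes was 0.00. Over the same days, 2 of 4 tested keratinocyte, 2 of 3 tested endothelial and 5 of 7 proliferation genes were lower in line cells and 2 of 11 immune genes higher, and their part was not tested. The largest called changes were those of Car9 (1.32 ± 0.18, edgeR adjusted p = 1.69e-05), Egln3 (1.08), Aldoc (1.04), Slc2a1 (0.72), Ndrg1 (0.69), Bnip3 (0.64), Ankrd37 (0.62), P4ha1 (0.56) and Pdk1 (0.52). Pgk1 (0.03), Ldha (0.02), Eno1 (0.02) and Hk2 (0.05) did not pass, nor did Slc16a3, the 1 member with a value below 0 (-0.70 ± 0.43). Of the 21 calls, 13 held in every alternative, and that of Aldoc was lost in 10. All 5 further response genes were higher, against 7 of the 16 genes of uptake and glycolysis. The day 6 tumours were often the lowest of the 23 later ones: day 6 A of KO 24, the only day 6 tumour of that line, was lowest for 17 members, day 6 B of control 18 for 7 and day 6 B of control 15 for 4.

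Other genes of the pathway give the surroundings. Of 30 other known HIF targets, 25 rose and 2 fell on average after day 0, against 27.5% and 21.5% of all tested genes, with a median of 0.97. The mitochondrial genes Ndufa4l2 and Cox4i2 and the lysyl oxidase Loxl2 had the highest called values. All were low at day 0: Ndufa4l2 ranged from 0 over 0.37 to 2.504 CPM and later from 1.35 over 6.40 to 23.2, Loxl2 from 0.49 over 1.11 to 2.58 and later from 1.41 over 13.8 to 46.96, and Cox4i2 was at most 0.32 at day 0 and at most 2.10 later. Stromal markers moved with them in line cells: 5 of 6 fibroblast genes and 1 of 4 tested pericyte genes rose, with medians of 3.39 and 3.33, and the summed pericyte markers stood at 0 to 0.58 CPM at day 0 and 0.29 to 12.8 later. The part of stromal RNA was not tested. Of 10 genes of the HIF pathway itself, 3 rose and 4 fell, the share higher being near the background: Hif1a (0.27), its partner Arnt (0.22) and the asparagine hydroxylase Hif1an (0.36) rose, and the ubiquitin-ligase genes Elob (-0.31), Cul2 (-0.37) and Eloc (-0.23) and the prolyl hydroxylase Egln2 (-0.15) fell. Epas1, Vhl and Hif3a did not pass. The by-line counts of this list and the next 2 are to be read against the share of all tested genes called in that line. It was 26.0% higher and 23.3% lower in control 15, 24.5% and 22.7% in KO 19, and 21.9% and 23.1% in KO 24. For control 18, with 1 day 0 sample, it is given with the member counts above. By line, the calls higher were 4 in control 15 and 1 in control 18, and the calls lower were 3 in control 15, 2 in control 18, 4 in KO 19 and 3 in KO 24. Hif1a changed by 0.71 and 0.29 in control 15 and control 18, which passed, and by 0.13 and -0.06 in KO 19 and KO 24, which did not. Of 18 genes of pyruvate entry and the citric acid cycle, 1 rose and 12 fell, led by Fh1 (-0.41), Suclg1 (-0.37) and Dld (-0.34). By line, 12 were lower in control 15, 5 in control 18, 2 in KO 19 and 7 in KO 24, and 4 were higher in KO 19 and 1 in KO 24. Of 16 nuclear-encoded genes of the respiratory chain, 1 rose and 14 fell, led by Ndufa4 (-0.86), Uqcrq (-0.53) and Ndufb8 (-0.28). By line, 15 were lower in control 15, 7 in control 18, 4 in KO 19 and 5 in KO 24, and 4 were higher in KO 19 and 2 in KO 24. In KO 19 both counts of the respiratory chain were near that line's shares, and in KO 24 the lower count was close to its share. For the citric acid cycle in KO 19, the higher count was near the share and the lower count under it. By the edgeR test of the difference, the respiratory-chain change was higher in the KO lines for 11 of the 16, against 15.9% of all tested genes. Of 7 genes of the pentose phosphate pathway, 1 rose and 3 fell.

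The counts that follow are again to be read against 27.5% of all tested genes higher and 21.5% lower on average. Among 9 tested genes for other isoforms of the member enzymes, 5 rose and 2 fell, the latter near the background, including the collagen hydroxylase P4ha3 (1.03), the lactate transporter Slc16a1 (0.76) and the mutase Bpgm (0.65). The integrated stress response, to which Ddit4 and Vegfa also answer, had 1 of 8 genes higher (Atf3, 2.20) and 6 lower, with Trib3 (-1.92) and Chac1 (-1.70) lowest. Of 7 proliferation genes, 3 rose and 0 fell on average (7 fell in control 15 and 4 in control 18, against 23.3% and 7.6%, and 7 and 6 rose in KO 19 and KO 24, against 24.5% and 21.9%), Top2a (0.45), Mki67 (0.43) and Mcm5 (0.34).

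In the same tumours, host cells carried less of most members than line cells as a share of their own UMIs. Macrophages were compared with line cells in 31 tumours, with tumour as a block: 5 members were higher and 27 lower of 33 tested, against 38.0% and 41.0% of 10815 tested genes. T cells had 2 higher and 27 lower, against 34.9% and 40.5%. Higher in macrophages were Slc16a3 (4.64 ± 0.15), Vegfa (1.53 ± 0.08), Aldoc (1.31 ± 0.22), Mxi1 (0.94 ± 0.08) and Hk2 (0.40 ± 0.09), and Slc16a3 (3.38 ± 0.21) and Mxi1 (0.66 ± 0.10) were higher in T cells. Adm was too low to be tested.

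Slc16a3 ranged from 0.53 over 4.71 to 12.7 CPM in line cells, from 60.4 over 132 to 274 in macrophages and from 0 over 50.2 to 130 in T cells. It was higher in macrophages than in line cells of the same tumour in 31 of 31 tumours, and in T cells in 30 of 31. Vegfa ranged from 22.2 over 34.5 to 96.0 CPM in line cells, from 38.6 over 88.5 to 314 in macrophages and from 8.04 over 18.3 to 54.7 in T cells, higher in macrophages in 31 of 31 tumours. The lowest in macrophages against line cells were Car9 (-1.90), Eno2 (-1.68), P4ha2 (-1.56), Pfkm (-1.51) and Ddit4 (-1.47). In T cells they were Eno2 (-2.68), P4ha2 (-2.58) and Car9 (-2.55).

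As a gauge of free line-cell RNA, genes with the lowest host level relative to line cells were read. This gauge and its percentages used medians of CPM without TMM scaling, so they differ from ratios of the scaled levels above. The scaled median of Slc2a1, for example, was 146 CPM in line cells and 106 in macrophages. Over 1505 genes of at least 100 CPM in line cells, the lowest 1% stood at 15.4% of the line-cell level or less in macrophages and at 11.3% or less in T cells. Car9 was at 26.0% of its line-cell level in macrophages and 18.9% in T cells, and P4ha2 in T cells at 16%. The part of free line-cell RNA in these levels was not tested. Slc2a1 was at 57.1% and 50.1%, and Gapdh at 52.9% and 56.0%. The defining T-cell markers summed to a median of 2.83 CPM in line cells and 3263 in T cells, and the macrophage markers to 31.7 in line cells and 11675 in macrophages.

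**Figure D4:**
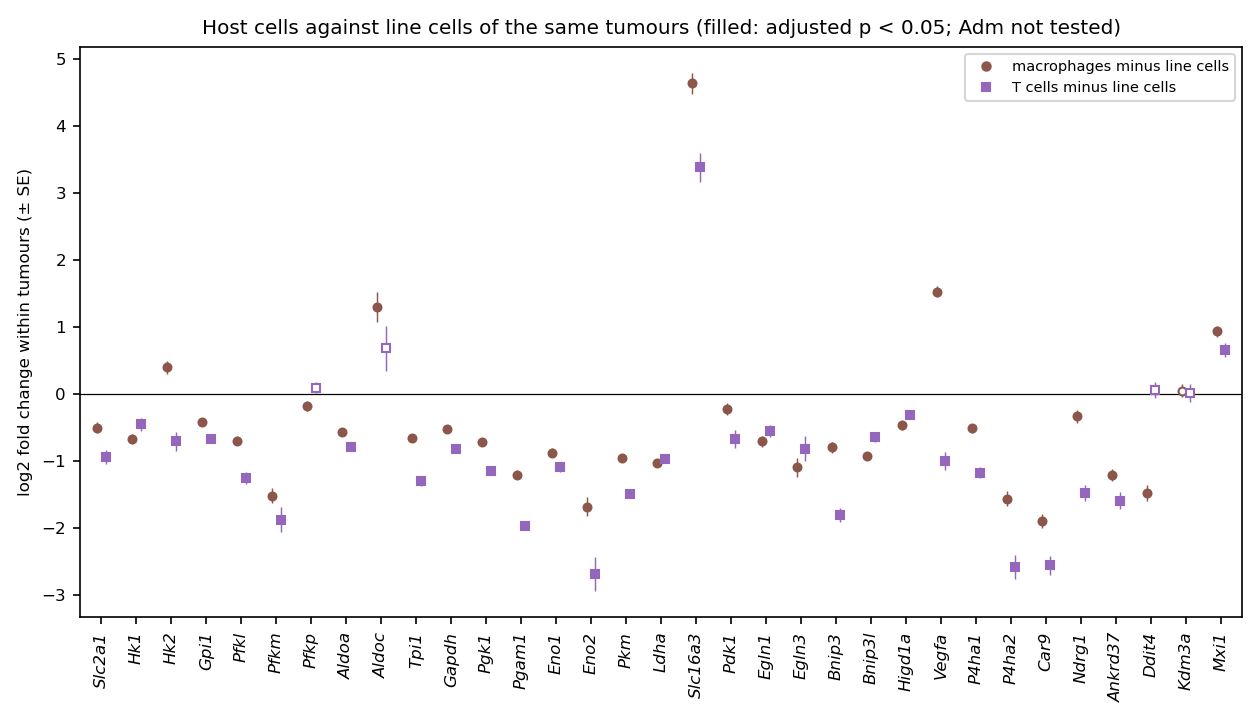
Log2 fold change of macrophages and of T cells against line cells of the same 31 tumours, with its standard error, for 33 members. Filled points passed the edgeR test at an adjusted p under 0.05. Slc16a3 is far above 0 in both host classes and Vegfa in macrophages only, and most other members lie below 0.

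Macrophages were compared between day 6 and day 16. In 23 tumours, 10 of 32 tested members were higher at day 16 and 0 lower, against 1.21% and 1.14% of 9035 tested genes (18 and 0 at an unadjusted p under 0.05 by edgeR, 10 and 0 by DESeq2). The 10 were Aldoa (0.64 ± 0.11, edgeR adjusted p = 0.00175), Gapdh (0.53 ± 0.10, edgeR adjusted p = 0.0027), Pkm (0.45), Eno1 (0.48), Tpi1 (0.49), Gpi1 (0.52), Bnip3 (0.87), Ldha (0.37), Ddit4 (2.58) and Pgam1 (0.38). Gapdh was 3870 ± 804 CPM (SD, n = 7) at day 6, 5110 ± 1022 (n = 8) at day 10 and 5380 ± 1213 (n = 8) at day 16, and Aldoa 949 ± 256, 1317 ± 360 and 1400 ± 319. The days overlapped in both genes. Ddit4, with the largest log2 change, was low: 27.5 ± 21.1 CPM at day 6, with a lowest value of 0, and 49.7 ± 22.3 at day 16. Its levels overlapped too, its log2 change is inflated by values near 0, and its call was lost in 5 alternatives. Only 1 call was left without control 15 and 6 without control 18, and 1 of the 10 held in every alternative. Of 8 macrophage markers in the same cells, C1qa (0.74), C1qb (0.52) and C1qc (0.67) were also higher at day 16 and Fcgr1 (-0.61) was lower, and the part of a change in the make-up of the class was not tested. The median ratio to line cells of the 50 lowest genes, a gauge of free RNA without TMM scaling, was 17.1% at day 6 (9 tumours), 18.4% at day 10 (11) and 17.9% at day 16 (11) in macrophages. These are the 31 tumours of the class comparison, mixed libraries included, not only the 23 of the change over days. The part of free line-cell RNA in the change was not tested. Slc16a3 (0.22 ± 0.26) and Vegfa (0.24 ± 0.21) did not pass.

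In T cells of 20 tumours, 0 of 26 tested members were higher and 0 lower by edgeR, against 0.15% and 0.113% of 5316 tested genes. At an unadjusted p under 0.05, 6 were higher and 0 lower, and DESeq2 called 0 and 0. Ddit4 came nearest, at 1.08 ± 0.26 (edgeR adjusted p = 0.0595).

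**Figure D5:**
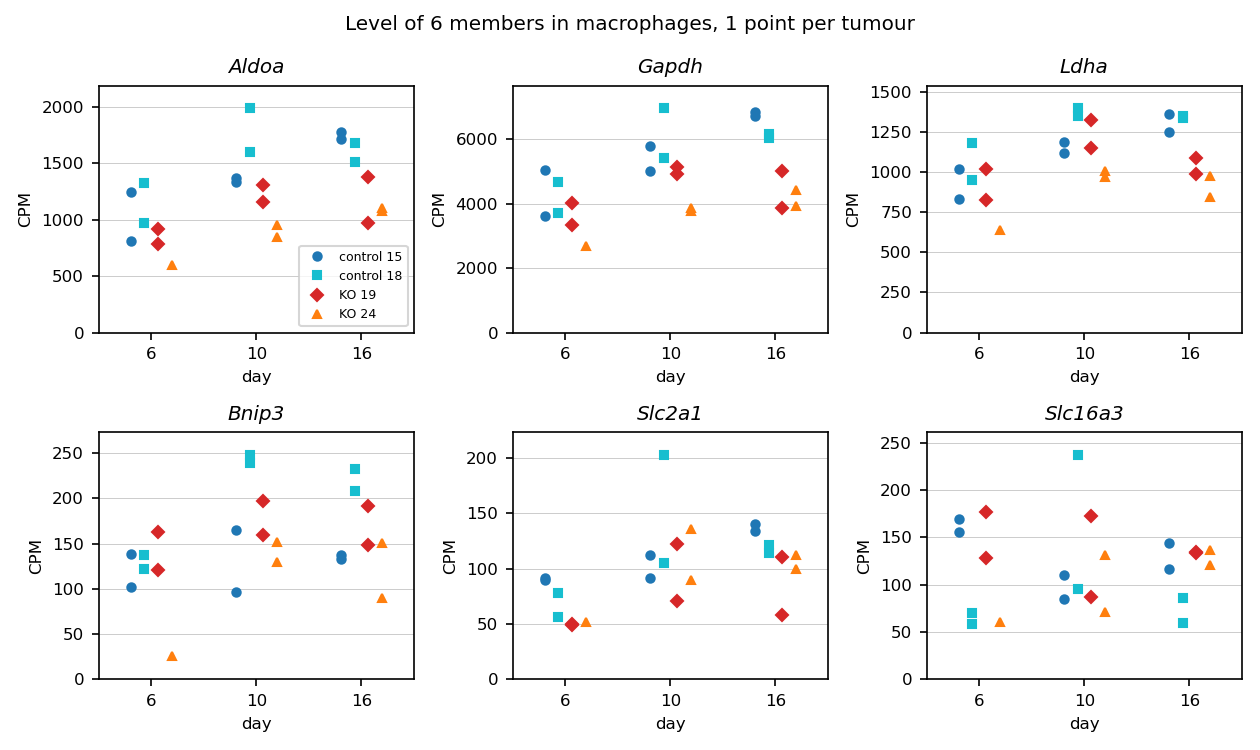
Level of 6 members in macrophages (CPM) at days 6, 10 and 16, 1 point per tumour and 1 colour and shape per line. Aldoa, Gapdh and Slc2a1 sit lower on average at day 6 than at days 10 and 16 with overlap, and Slc16a3 overlaps across all days. Slc2a1 means were 66.4, 116 and 111 CPM at days 6, 10 and 16, a change that was not called.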

How the data were processed

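For each of 6 libraries the deposited table holds the authors' unnormalised UMI counts of genes and of hashtags in every cell barcode. Reads were processed with Cell Ranger 6.0.0 and build mm10, per the submitters' processing notes. Other upstream settings: not given in the sources used here. The median UMIs per barcode of a library ran from 2881 to 7736.

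Cells with fewer than 300 genes or over 15% mitochondrial UMIs were left out. Hashtags were called with HTODemux (Seurat 5.3.0), keeping singlets, which also removes doublets between hashtags; no other doublet caller was run. Hashtags under 0.1% of a library's hashtag UMIs were dropped, leaving 45 of the 47 in the sheet. The 2 dropped were day 0 B of control 18 and day 6 B of KO 24. Between any pair of libraries, 3.83% to 5.05% of the barcodes of the smaller were shared. Line cells had at least 1000 UMIs, at most 0.1% of UMIs from 11 immune genes, 0.1% from endothelial and 0.5% from keratinocyte genes. Macrophages had at least 0.2% from the macrophage list over 3 of its genes, and T cells at least 0.1% from the T-cell list over 2. Fibroblasts and pericytes were not gated out of line cells.

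Counts were summed per tumour and class (at least 20 cells) and fitted over all genes with edgeR 4.0.16 in R 4.3.3 (filterByExpr, TMM scaling, quasi-likelihood test, Benjamini-Hochberg adjusted p under 0.05 as a call). Line cells had a mean per line and day with 14 residual degrees of freedom, and classes had tumour as a block. Levels are TMM-scaled CPM (UMIs per 1e6 UMIs) of that class, except in the gauge of free RNA, the shares of UMIs and the WT tumours, which are unscaled. The tests were checked on simulated data with a log2 change of 1 in 200 genes. Counts were drawn around 1 mean per gene shared by all samples, with a dispersion not fitted per gene. No other gene changed and lines did not differ, unlike in the data, so the shares below may not hold there. Of these, 76.5% were recovered for the average change after day 0, 38.5% for control 18 and 91% for macrophages against line cells. Of the calls, 2.5%, 2.5% and 6.2% were of unchanged genes. In this simulation a change of that size was often missed in control 18. DESeq2 1.42.0 was an alternative, as were RLE scaling, no count filter, other hashtag calls, other gates, each line left out and each tumour left out.

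Members and lists were chosen with earlier results of these data known. Values are given for Slc2a1, Hk2, Ldha, Pgk1, Gapdh, Vegfa, Bnip3, Egln3, Car9, Ankrd37, Ddit4 and the 6 other members with the largest called average change, and from each other list for its 3 largest called changes and all HIF pathway genes. Other members were singled out after their values were seen.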

Additional observations from a re-analysis of the deposited data

Results flagged for a closer look

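Of 68 groups of tumours searched for a value far from the rest, 1 held one, where chance flags about 1 in 20 groups. It was Ndrg1 in line cells of day 6 A of KO 24, at 159 CPM, the lowest of the 5 later tumours of that line.

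For 15 members, the change after day 0 differed between KO and control lines by the edgeR test of that difference. On the log2 scale, KO minus control, the differences were 1.45 for Pgk1, 1.36 for Higd1a, 1.11 for Ldha, 0.94 for Pdk1, 0.87 for Eno1, 0.86 for P4ha2, 0.84 for Pgam1, 0.77 for Pfkl, 0.77 for Egln1, 0.66 for Tpi1, 0.60 for Hk2, 0.57 for Gapdh and 0.48 for Pkm. They were -0.80 for Eno2 and -0.62 for Pfkm. Of these calls, 11 held in every alternative run, and that of P4ha2 was lost in 15. Each genotype stands on 2 lines with a library each, so genotype, line and library cannot be told apart here.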

How the results depend on the processing

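Direction and call held in 8611 of the single-gene comparisons between the reported setting and an alternative, the direction alone in 319, and 28 turned. For the average change after day 0, 28 of 32 called members were called in every alternative run, against 12 of 23 in control 15, 3 of 6 in control 18, 23 of 31 in KO 19, 26 of 28 in KO 24, 11 of 15 for the KO minus control change, 12 of 22 and 1 of 24 for KO minus control at day 0 and at days 6 to 16, 13 of 21 for day 16 minus day 6 and 1 of 10 in macrophages from day 6 to 16. The number of called members in control 18 was 6 as reported, 3 with RLE scaling, 14 with no count filter and 11 with hashtags called by ratio. For KO minus control at day 0 it was 22 as reported and 13 without KO 24. For KO minus control at days 6 to 16 it was 24 as reported and 1 in the mixed libraries, and again 1 there without day 16 C of control 18, a setting chosen after the data were seen. The mixed fit had no term for line, unlike the reported one, so these counts are not alike. The shares of all tested genes fell too, from 28.6% higher and 29.2% lower to 2.49% and 1.42%. For macrophages the number of called members was 10 as reported, 1 without control 15 and 6 without control 18. For T cells it was 0 as reported and 1 each with no count filter, with stricter host gates and without KO 24. The cause of these moves was not tested.

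With each tumour left out in turn, the number of called members ranged from 13 to 24 in control 15 (13 and 15 without its day 0 samples A and B), from 4 to 11 in control 18 (11 without day 6 A or day 6 B of control 15), from 23 to 31 in KO 19 and from 26 to 29 in KO 24. It ranged from 31 to 32 for the average, 14 to 18 for the KO minus control change, 21 to 24 for KO minus control at days 6 to 16, 21 to 23 at day 0 and 19 to 27 for day 16 minus day 6. No value could be had without the single day 0 sample of control 18 for control 18, the average, the KO minus control change or KO minus control at day 0. The same held without the single day 6 tumour of KO 24 for KO 24, the average, the KO minus control change, KO minus control at days 6 to 16 and day 16 minus day 6.

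The turned values, KO minus control at days 6 to 16, were -0.01 for P4ha2 without control 18 and -0.44 for Aldoc without KO 19. Without KO 24 they were 0.00 for Pfkp, 0.07 for Aldoa, 0.08 for Tpi1, 0.03 for Gapdh, 0.17 for Eno1, 0.14 for Ldha and 0.09 for Bnip3l. In the mixed libraries they were 0.12 for Gpi1, 0.10 for Aldoa, 0.19 for Tpi1, 0.13 for Gapdh, 0.15 for Eno1, 0.21 for Pkm, 0.08 for Ldha, 0.04 for Slc2a1 and 0.02 for Bnip3l. There, without day 16 C of control 18, they were 0.08 for Gpi1, 0.05 for Aldoa, 0.18 for Tpi1, 0.09 for Gapdh, 0.10 for Eno1, 0.15 for Pkm and 0.05 for Ldha. At day 0 without KO 24 they were -0.28 for Hk2 and 0.12 for Aldoa, and the change of Kdm3a in KO 19 ranged from -0.02 (without its day 0 sample B) to 0.57 (without sample A). The median of all tested genes moved by -0.12 (control 18) and 0.14 (KO minus control change) with DESeq2, and by -0.10 and -0.11 with RLE scaling for macrophages and T cells against line cells. The letters A and B of the hashtag sheet recur across lines and days, and no source says that a letter marks anything shared. The A minus B differences of 14 line and day groups correlated above 0.1 in 7 of 91 pairs of groups (median -0.004, from -0.123 to 0.239), so the letters were not taken as pairs. With the letter as a replicate block, a setting chosen after the data were seen, the number of called members was 7 in control 18, 14 for the KO minus control change and as reported in the other comparisons over days or between KO and control lines of the single-line libraries. The fit of the mixed libraries had library and day as terms beside genotype, and no term for line.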

Other observations

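The 3 tumours marked WT in the hashtag sheet, all of 1 mixed library and without a described group, gave these line-cell levels at days 6, 10 and 16. They are CPM without TMM scaling, unlike the levels of the other tumours. Slc2a1 was 142, 174 and 145 CPM, and Pgk1 was 1083, 1151 and 828. Bnip3 was 303, 409 and 282 CPM. Car9 was 184, 328 and 247, and Egln3 was 14.4, 21.6 and 22.3. Gapdh was 6628, 7099 and 5638 CPM, and Mif was 2437, 2607 and 2222.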
